A study of Mus musculus with 5 samples.

Results

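The C/EBPα-only peaks described here are the peaks of the C/EBPα list that shared 0 bp with every Hoxa9 peak, every H3K4me1 region and every H3K27me3 region. They are called unmarked below. The rule kept 6570 of 26446 C/EBPα peaks, a share of 24.8% (exact 95% interval 24.3 to 25.4, counting error only). The lists came from chromatin immunoprecipitation followed by sequencing (ChIP-seq) of mouse hematopoietic progenitor cells. Lineage-depleted bone marrow of C57B6 mice had been transduced with retroviruses for HA-tagged Hoxa9 (MIGR1-HA-Hoxa9) and Flag-tagged Meis1 (MIGR1-Flag-Meis1), and the cells were grown with IL3. All libraries came from these doubly transduced cells, so both transgenes, expressed from a retroviral vector, were shared by every library. Hoxa9 was precipitated with anti-HA, C/EBPα with anti-C/EBPα, H3K4me1 with anti-H3K4me1 and H3K27me3 with anti-H3K27me3. Each precipitation had 1 library and there were no replicates.

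C/EBPα is a leucine zipper transcription factor that directs granulocyte and monocyte development and binds DNA as a dimer. H3K4me1, monomethylation of lysine 4 on histone H3, is placed mainly by the MLL3 and MLL4 methyltransferases and marks active and primed enhancers, usually on the nucleosomes that flank the bound factors. It is commonly low over the start sites of active genes, where trimethylation of the same lysine prevails, a mark that was not measured. H3K27me3 is the mark of Polycomb repression.

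The values of each peak were made by the authors' peak caller and were used to describe and rank peaks within a list. A tag is a sequenced fragment end counted in the peak, and fold enrichment is the caller's ratio of signal to its background estimate. The members were chosen by calls in all 4 lists, and a wider peak touches a neighbouring region more easily, so differences in width, tags and enrichment between classes are descriptions partly set by the rule. No difference below was tested, because 1 library a group leaves no replicate error and peaks are not replicates. The weakest called peak held 15 tags in the C/EBPα list and the weakest region 14 tags in the H3K4me1 list, so a peak without a call of another protein may still have held some of it.

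Unmarked peaks were weak and narrow for the list. Their median was 23 tags (quartiles 17 and 36), against 38 (23 and 67) in the 15597 C/EBPα-only peaks inside H3K4me1 and 63 (34 and 112) in the 3764 peaks shared with Hoxa9. The lowest member held 15 tags and the highest 543. Of all members, 36.0% held under 20 tags, against 17.5% of C/EBPα-only peaks inside H3K4me1. Median width was 527 bp in members, 661 bp inside H3K4me1 and 815 bp in peaks shared with Hoxa9. Median fold enrichment was 6.32, 7.99 and 11.55 in the same order. The quartiles of the 3 classes overlapped in all 3 measures. Closest to members were the 515 C/EBPα-only peaks that met H3K27me3, with medians of 27 tags, 582 bp and a fold enrichment of 6.84. The 227 peaks shared with Hoxa9 outside both marks had medians of 35 tags, 641 bp and 7.91. Members made up 24.8% of the list by number and 15.1% of its tags. Tags and width ran together across members (Spearman's rho = 0.93 over 6570 peaks, which share 1 library), more closely than tags and fold enrichment (rho = 0.73).

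**Figure D1:**
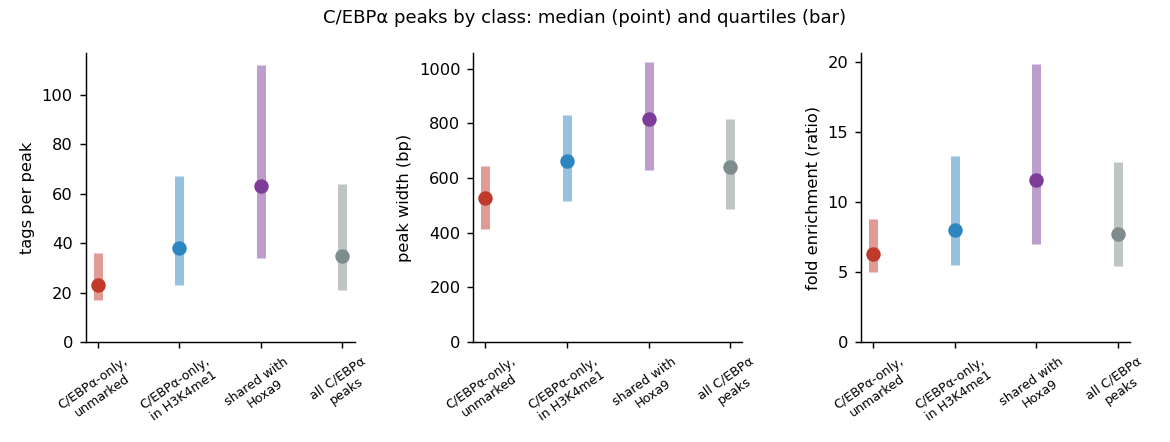
Tags per peak, peak width in bp and fold enrichment for unmarked C/EBPα-only peaks, C/EBPα-only peaks inside H3K4me1, peaks shared with Hoxa9 and all C/EBPα peaks, with points at the median and bars from the lower to the upper quartile. Unmarked peaks have the lowest median in each panel, 23 tags, 527 bp and 6.32, and their quartile bars overlap those of the other classes.

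The unmarked share of C/EBPα-only peaks was lower at each higher tag group up to 100 tags. It was 45.3% (43.9 to 46.6) of those with 15 to 19 tags, 37.2% with 20 to 29, 25.5% with 30 to 49, 15.03% with 50 to 99, 9.51% (8.02 to 11.2) with 100 to 149 and 8.41% (6.63 to 10.5) with 150 or more. The intervals of the last 2 groups overlapped. Grouped by fold enrichment, the unmarked share was 36.1% below 5, 37.4% from 5 to 7, 29.5% from 7 to 10, 19.6% from 10 to 20, 10.7% from 20 to 40 and 10.4% at 40 or more. Peaks with few tags thus lacked the marks most often. Of 2221 C/EBPα-only peaks with 100 or more tags, 202 (9.10%) had no call of either mark, against 6570 (29.0%) of all 22682 C/EBPα-only peaks.

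**Figure D2:**
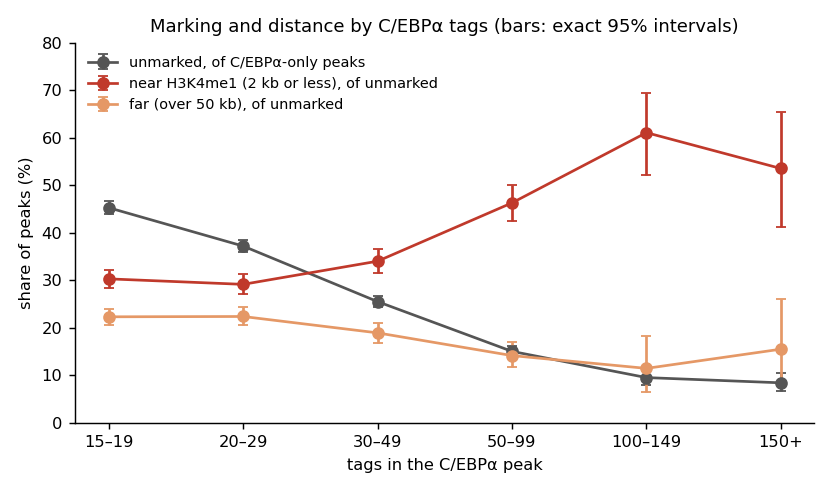
Share of C/EBPα-only peaks that were unmarked (grey), and shares of unmarked peaks near H3K4me1 (2 kb or less, red) and far from it (over 50 kb, orange), by tags in the C/EBPα peak, with exact 95% intervals that cover counting error only. The unmarked share is 45.3% at 15 to 19 tags and 8.41% at 150 or more, while the near share is 30.3% at 15 to 19 tags and 61.1% at 100 to 149.

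Median tags and width changed little at the very edge of the rule. Peaks just outside it shared a few bases with an H3K4me1 region: 44 C/EBPα-only peaks shared 10 bp or less and 416 shared 100 bp or less. The last group had a median of 26 tags and a width of 553 bp, beside 25 tags and 548 bp in the 588 members at 200 bp or less from a region. The smallest overlap was 1 bp, and the 2 peaks with most tags among those sharing 1 bp lay at chr10:79896395-79897143 (mm9, 51 tags) and chr11:61818567-61819217 (33 tags). Just inside it, 6 members abutted a region with 0 bp between them, led by chr5:144984140-144984863 (52 tags, fold enrichment 12.22) and chr11:5420144-5420815 (36 tags, fold enrichment 12.03). Touching a region did not mean lying in it: in 2148 of 15597 C/EBPα-only peaks that met H3K4me1, 13.8%, the summit was outside the region. These 2148 were stronger and wider than the 588 members, with medians of 40 tags and 678 bp. Of them 15.0% held 100 or more tags, against 4.76% of the 588.

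Distance from the mark, counted as the bases between a member and the nearest H3K4me1 region, had a median of 6754 bp, with quartiles at 991 and 34909 bp. Near members, at 2 kb or less, numbered 2188, or 33.3% (32.2 to 34.5). Far members, at over 50 kb, numbered 1344, or 20.5% (19.5 to 21.5). The other 3038, or 46.2%, lay between. The near share was 49.97% if only the summit had to lie outside other calls, 19.7% with other calls extended by 500 bp and 21.6% with only the upper 50% of H3K4me1 regions by score. Under the summit and extension settings, gaps still ran from whole peaks to unextended regions. Peaks that met a region beside their summit thus counted as near, and extension removed the members within 500 bp. Those moves largely follow from the setting itself. To set the near and far shares against the space outside the mark, all positions were counted at which an interval of 527 bp fits between H3K4me1 regions. Of these positions 8.08% were near and 56.7% were far. Unmappable sequence and positions taken by Hoxa9 or H3K27me3 calls were not removed from this count. Members thus lay near the mark more often, and far from it less often, than the space outside it is spread.

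Density of members was lower in each farther group. There were 22.1 members per Mb of positions at 200 bp or less, 10.9 at 501 to 1000 bp, 4.55 at 2001 to 5000 bp, 2.75 at 25001 to 50000 bp, 0.926 at 100001 to 500000 bp and 0.543 beyond. Near positions held 11.2 members per Mb and far positions 0.982, a ratio of 11.4. Median strength differed much less than density: median tags were 25 in near, 23 in intermediate and 22 in far members, and median fold enrichment was 6.36, 6.17 and 6.58. The strongest peaks differed more: 5.39% of near, 1.91% of intermediate and 1.93% of far members held 100 or more tags. A fold enrichment of 10 or more was found in 24.1%, 15.3% and 18.2%. Tags and distance were almost unrelated across members (rho = -0.10 over 6570 peaks of 1 library).

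Hoxa9-only peaks outside both marks, chosen in the same way from the Hoxa9 list, lay farther out. Of these 883 peaks, 22.7% (19.9 to 25.6) were near H3K4me1 and 30.01% (27.003 to 33.2) were far, against 33.3% and 20.5% of the C/EBPα members. Their median distance was 12803 bp. The intervals of the 2 factors did not overlap for either share, and they cover counting error within 1 library each. The factors were mapped with different antibodies in different libraries, and the part of that in the difference was not tested.

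**Figure D3:**
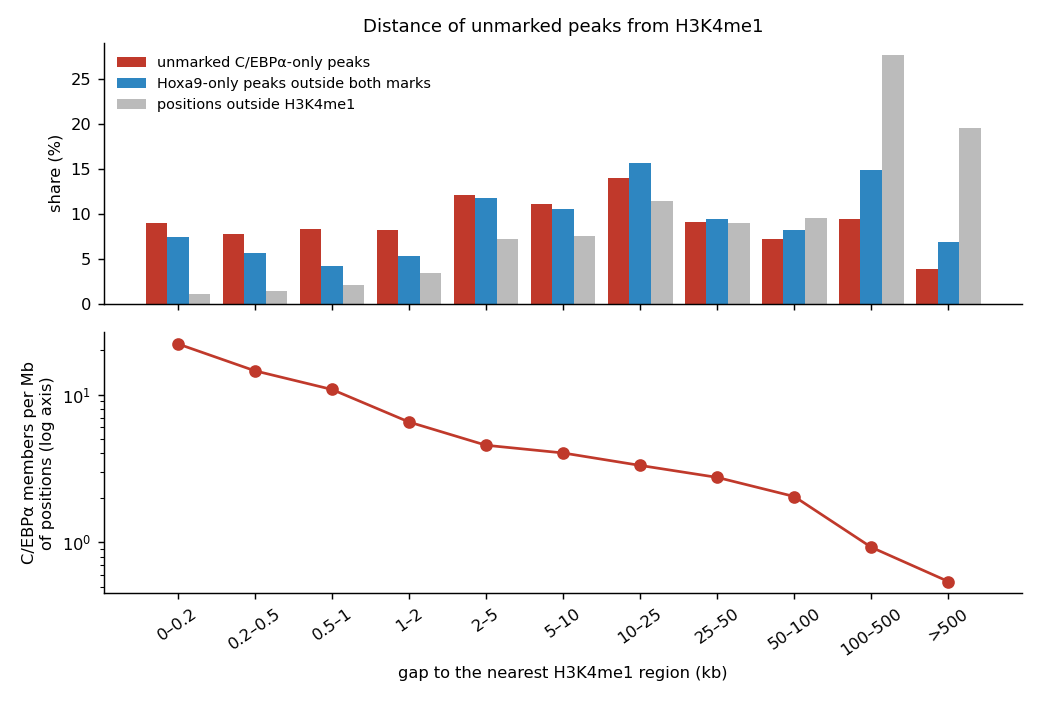
Upper panel, share in percent of unmarked C/EBPα-only peaks (red), of Hoxa9-only peaks outside both marks (blue) and of positions outside H3K4me1 (grey) by the gap in kb to the nearest H3K4me1 region. Lower panel, C/EBPα members per Mb of positions on a log axis. Density runs from 22.1 at 200 bp or less to 0.543 beyond 500 kb, while the grey bars are highest from 100 to 500 kb.

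Many near members sat in a narrow break between a pair of H3K4me1 regions. Of 2188 near members, 777 (35.5%, 33.5 to 37.6) had a region within 2 kb on both sides. The share of near positions with regions on both sides was not counted, so no background stands beside this value. The break around these 777 had a median length of 2069 bp (quartiles 1513 and 2605), of which the peak covered a median of 29.7%. Their median was 28 tags against 24 in the 1411 near members with the mark on 1 side only. The share with 100 or more tags was 7.59% with the mark on both sides and 4.18% with it on 1 side. The regions beside near members were close to the typical region in size and tags: 2151 nearest regions had a median width of 708 bp and 29 tags, against 768 bp and 32 tags over all 100189. Of these nearest regions 14.9% held a C/EBPα peak of their own and 3.49% a Hoxa9 peak, against 19.9% and 6.22% of all regions.

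Breaks of 1 to 4 kb were the most densely filled. H3K4me1 regions left 100192 gaps, counting chromosome ends, and 5299 of them held a member. Members numbered 19.04 per Mb in gaps of 1000 to 1999 bp and 16.3 per Mb in gaps of 2000 to 3999 bp. In gaps of 10000 to 49999 bp there were 4.66 per Mb, and in gaps of 500000 bp or more 0.920. Gaps under 1000 bp held 4.70 per Mb, and most of them are too short for a peak of the median width with space to spare. The share of strong members was highest, at 8.47% (47 of 555), in gaps of 2000 to 3999 bp. Most of the short breaks were empty: of 11803 gaps of that length, 516 (4.37%) held a member.

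**Figure D4:**
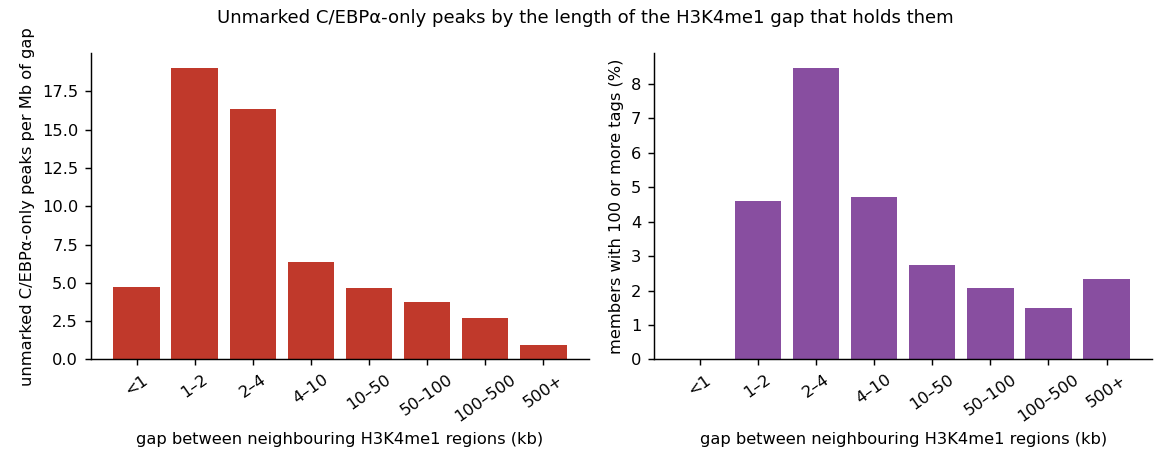
Unmarked C/EBPα-only peaks per Mb of gap (left) and the share in percent of them with 100 or more tags (right), by length in kb of the gap between neighbouring H3K4me1 regions that holds them. Density is highest, 19.04 per Mb, at 1 to 2 kb and the strong share is highest, 8.47%, at 2 to 4 kb.

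Far members reached into long stretches without the mark. Of all members, 873 lay over 100 kb from any H3K4me1 region, 256 over 500 kb and 107 over 1 Mb. The farthest was chrX:24821175-24821595, at 4310589 bp, with 17 tags and a fold enrichment of 4.09. The next were chr14:93242133-93242549, at 4118316 bp with 19 tags, and chr14:91442275-91442673, at 3556388 bp with 16 tags. These 3 stood close to the lowest tag count of the list. Beyond 500 kb the median was nevertheless 22 tags, as in all far members, and 20.3% of those 256 had a fold enrichment of 10 or more, against 18.8% of all members and 35.7% of all C/EBPα peaks.

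At the limits that define near and far, members on both sides held 15 to 30 tags. The member just inside 2 kb, chr3:21997225-21997622, lay 1996 bp from a region with 15 tags, and the one just outside, chr18:75160704-75161290, lay 2017 bp away with 27 tags. Around 50 kb, chr1:16788330-16788767 (20 tags) lay 49963 bp away and chr9:15605364-15605998 (30 tags) 50048 bp away.

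Unmarked peaks were also more isolated from other C/EBPα binding than the list as a whole. No other C/EBPα peak lay within 50 kb of 1961 members, 29.8% (28.7 to 30.97), against 14.6% of all C/EBPα peaks and 8.85% of C/EBPα-only peaks inside H3K4me1. The share was not particular to them: it was 33.4% (29.3 to 37.7) of 515 C/EBPα-only peaks that met H3K27me3 and 26.0% (20.4 to 32.2) of 227 peaks shared with Hoxa9 outside both marks. The median gap to the next C/EBPα peak was 22096 bp in members, 7809 bp inside H3K4me1 and 6598 bp in peaks shared with Hoxa9. With the list cut to a fold enrichment of 10 or more, 55.7% of the 1238 members left were isolated. The cut left 9434 of the 26446 C/EBPα peaks, so possible neighbours were removed too. No share over all peaks of the cut list is set beside this value. Against the full list, 30.8% of members with a fold enrichment of 10 to 20 were isolated, close to the 29.8% of all members. The share was lower in the groups from 20 up. Isolation ran with distance from the mark: 11.8% of near, 22.4% of intermediate and 76.0% of far members were isolated. This trend is partly set by the definitions. A far member has no H3K4me1 region within 50 kb, so C/EBPα peaks that met the mark could hardly lie within 50 kb of it. Among the isolated members, 52.1% were far and 13.2% near. Isolated members were nearly as strong as the rest, with a median of 23 tags against 24, and 50 of them held 100 or more tags.

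The 3 most isolated members held 15 to 29 tags, around the median of 23. On X, chrX:111118286-111118856 (23 tags) had no other C/EBPα peak within 4131526 bp, and chrX:85897598-85897966 (15 tags) none within 2823836 bp. On chromosome 6, chr6:77573652-77574254 (29 tags, fold enrichment 9.77) stood 2679145 bp from the next. In 783 members (11.9%), all of them far by definition, no call of any of the 4 lists lay within 50 kb. This share has no counterpart over the whole C/EBPα list here.

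The class of the nearest C/EBPα peak was close to the make-up of the list for near members and unlike it for far members. C/EBPα-only peaks inside H3K4me1 made up 58.98% of the list and unmarked peaks 24.8%. The nearest peak of a near member was of these classes in 60.6% and 26.5% of cases, and that of a far member in 22.9% and 65.7%. The far rule leaves hardly any peak inside H3K4me1 within 50 kb of a far member, so this contrast is partly set by the definition. The nearest peak of a far member was often remote, at a median gap of 116853 bp. Hoxa9 was within 10 kb of 15.3% of near members, 6.68% of intermediate and 1.04% of far members, and of 8.40% of all members. No share over the whole C/EBPα list is set beside these, so they compare members only with each other.

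Clusters of unmarked peaks were few. With gaps of 10 kb or less, 5754 of 6570 members (87.6%) had no other member beside them, 354 pairs were found and 33 stretches held 3 or more. Only members counted as neighbours here, and they are 24.8% of the list. A C/EBPα peak of any class lay within 10 kb of 32.1% of members, against 50.3% of all C/EBPα peaks. The most members in a stretch was 6, in 2 places. At chr4:154214807-154227213, 6 peaks covered most of 12407 bp nearly end to end, held from 31 to 194 tags and had fold enrichments from 2.72 to 5.03. At chr7:71610523-71640134, 6 peaks held from 38 to 125 tags and had fold enrichments from 1.95 to 3.19. Both stretches thus combined many tags with low enrichment, and neither held another C/EBPα peak or an H3K4me1 region. The next stretch, at chr9:85217699-85226837, held 4 members, of which 1 had 113 tags and a fold enrichment of 24.69 and the others 17 to 45 tags. It contained 2 H3K4me1 regions in the spaces between members.

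Strong members, with 100 or more tags, numbered 202, or 3.07% (2.67 to 3.52) of the unmarked peaks. The number was 539 if only the summit had to lie outside other calls and 355 if only the upper 50% of H3K4me1 regions by score counted. In the whole C/EBPα list the share was 12.6%, and in C/EBPα-only peaks inside H3K4me1 it was 12.7%. It was 6.41% in C/EBPα-only peaks that met H3K27me3 and 9.25% in peaks shared with Hoxa9 outside both marks. At the limit, 5 members held exactly 100 tags, 1 of them with a fold enrichment of 3.19 (chr7:71638527-71640134) and the other 4 with 19.02 to 22.57, and 3 held 99, with fold enrichments from 17.78 to 20.83. Most strong members lay close to the mark that they lacked. Near members made up 118 of the 202, or 58.4% (51.3 to 65.3), intermediate members 58, or 28.7%, and far members 26, or 12.9% (8.58 to 18.3). The median distance was 1105 bp, against 6754 bp over all members. H3K4me1 lay within 2 kb on both sides of 59 strong members, in breaks of a median of 2573 bp.

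Enrichment divided the strong members into 2 separate groups. In 171 of them fold enrichment ran from 10.42 to 145.99 with a median of 27.67, and in the other 31 it ran from 1.91 to 6.58 with a median of 3.65, with no strong member in between. Both groups held 100 or more tags by selection, with a median of 143 in the low group and 130 in the high group. The median score of the low group, on the caller's scale of 10 times −log10(p), was 109.04 against 1342.67. Low enrichment was rarer among strong C/EBPα-only peaks inside H3K4me1, where 26 of 1986 (1.31%, 0.857 to 1.91) were under 10, than among strong members, 15.3% (10.7 to 21.1).

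The groups differed in place. Of the 171 strong members with a fold enrichment of 10 or more, 116 (67.8%, 60.3 to 74.8) were near and 11 (6.43%, 3.25 to 11.2) were far. Of the 31 with lower enrichment, 2 were near and 15 were far. Low enrichment was thus found in 2 of 118 near, 14 of 58 intermediate and 15 of 26 far strong members. The median distance to H3K4me1 was 829 bp in the first group and 44028 bp in the second. In the low group 13 peaks were 1500 bp or wider, of 21 such strong members in all, and 6 lay in the 2 stretches of 6 named above. The input library was not used here, and the part of background in these calls was not tested.

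**Figure D5:**
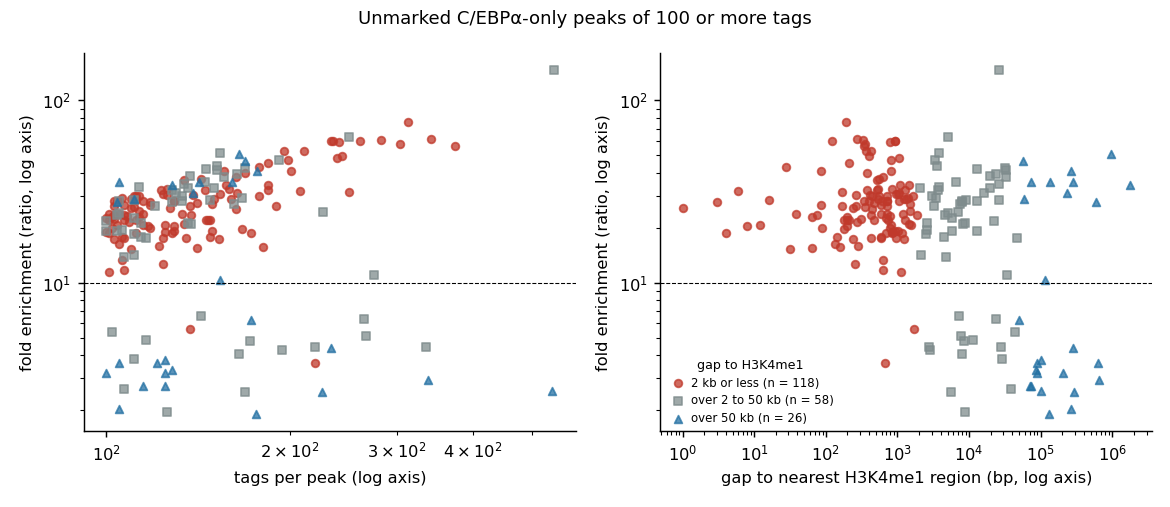
Fold enrichment (log axis) of the 202 unmarked C/EBPα-only peaks of 100 or more tags, against tags (left, log axis) and against the gap in bp to the nearest H3K4me1 region (right, log axis), with the dashed line at a fold enrichment of 10. No point lies between 6.58 and 10.42. Near peaks (red circles) lie above the line except for 2 of 118, and 15 of 26 far peaks (blue triangles) lie below it.

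The 10 members with most tags contained both kinds. First came chr3:157724541-157725887, with 543 tags, a fold enrichment of 145.99 and the nearest H3K4me1 region 26405 bp away. On its other side the next region was 1433261 bp off, and the nearest other C/EBPα peak was 103590 bp away. An H3K27me3 region lay closer, at 11474 bp. Second was chr12:75904792-75905790, with 540 tags in 999 bp and a fold enrichment of 2.56, 102300 bp from the mark. The fifth, chr14:86598651-86599249, held 338 tags in 599 bp with a fold enrichment of 2.95 and lay 647251 bp away. The latter pair were the only members with 0.5 or more tags per bp. The sixth, chr13:13845105-13847862, was 2758 bp wide with 335 tags and a fold enrichment of 4.45. The tenth, chr5:130137885-130139735, held 275 tags with a fold enrichment of 10.99, 33356 bp from the mark.

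The other 5 of the 10 all lay in short breaks of H3K4me1 and were also the 5 strongest members with the mark on both sides. At chr11:50190711-50192648, 373 tags with a fold enrichment of 56.57 stood 340 bp and 546 bp from the regions to the left and right. At chr6:136757199-136758325, 341 tags with a fold enrichment of 61.48 stood 655 bp and 271 bp from them. At chr4:55362285-55363257, 313 tags with a fold enrichment of 76.02 stood 189 bp and 1437 bp away. The remaining ones were chr6:70741535-70742816, with 303 tags and a fold enrichment of 57.43, and chr4:155078579-155079746, with 283 tags and 61.0. The 5 breaks were 2053 to 2824 bp long. Of these 5 sites, chr6:70741535-70742816 alone had a Hoxa9 peak within 10 kb, at 3594 bp. All 5 shared a score of exactly 3100 with chr3:157724541-157725887, a value at which 9 members were tied, so score does not rank them.

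Among far members, those with most tags were mostly of the low kind. After the peaks on chromosomes 12 and 14 came chr4:146805674-146807664, with 234 tags and a fold enrichment of 4.41 at 282530 bp, and chr3:56379079-56379946, with 226 tags and 2.53 at 293296 bp. The fifth, chr3:85374732-85375988, was of the other kind, with 177 tags, a fold enrichment of 40.92 and a score of 2051.42 at 267437 bp. It led the 11 strong far members with a fold enrichment of 10 or more. The next of these, named after their values were seen, were chrX:17831577-17832750 (169 tags, fold enrichment 46.3, 55931 bp), chr5:18815374-18816410 (165 tags, 50.79, 949154 bp) and chr10:34418956-34420030 (161 tags, 35.78, 279889 bp). These 11 held 104 to 177 tags with a median fold enrichment of 35.62, so strong far members with high enrichment were few. At any tag count, 245 of 1344 far members (18.2%) had a fold enrichment of 10 or more, close to the 18.8% of all members. The median distance of the 11 strong far members with high enrichment was 234835 bp from H3K4me1 and 356684 bp from Hoxa9.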

How the data were processed

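ChIP-seq peak lists of Hoxa9, C/EBPα, H3K4me1 and H3K27me3 were used, each from 1 library; the input library was not used here. The submitters' processing notes name MACS 1.4, BWA 0.6.2, CASAVA 1.8.2 and mouse build mm9. Caller settings and control are not stated in them. Per the file headers, the authors' lists hold whole-number tag counts per peak, a score of 10 times the −log10 of the p-value, a linear fold enrichment ratio and a false discovery rate in percent, besides positions, widths and summits. The depth of each library is therefore unknown here beyond its called peaks.

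A peak was a member if it shared 0 bp with every call of the other 3 lists. Gaps are bases between edges. Near is 2 kb or less from H3K4me1, far over 50 kb, strong 100 tags or more, and isolated over 50 kb from another C/EBPα peak. Shares carry exact Clopper-Pearson intervals at 95% for counting error only. Python 3.11.15, pandas 2.3.3 and scipy 1.17.1 were used, and the interval code was checked on simulated lists. The members, limits and named sets were chosen with earlier results of these data known. Peaks named were those with most tags (10 of all, 5 far, 5 near with the mark on both sides), the 3 farthest from H3K4me1 and from C/EBPα, the 3 fullest stretches and those at each limit. The gene and promoter tables at hand are of GRCm38, so peaks are given by mm9 coordinates, without genes or sequence.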

Additional observations from a re-analysis of the deposited data

How the results depend on the processing

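Of 45 alternatives to 6 results, 19 stayed within 1.5 times a count or within the interval of a share or median, and 26 moved. If only the summit had to lie outside other calls, the median was 26 tags, 49.97% of members were near, 15.3% far and 25.9% isolated, and 539 were strong. With other calls extended by 500 bp, 19.7% were near, 24.7% far and 33.6% isolated. Under both settings gaps still ran from whole peaks to unextended regions, so the near shares were largely set by the rule. At a C/EBPα fold enrichment of 10 or more, 1238 members remained, with a median of 55 tags, 42.6% near and 55.7% isolated, as the list itself then holds fewer peaks. With the upper 50% of H3K4me1 regions by score, the median was 25 tags, 21.6% were near, 25.7% far and 25.5% isolated, and 355 were strong. Without chromosome X, 19.4% were far. Other limits gave 25.1% near at 1000 bp and 45.4% at 5000 bp, 29.6% far at 25000 bp and 13.3% at 100000 bp, 67.9% isolated at 10000 bp and 16.4% at 100000 bp, and 310 strong members at 80 tags and 71 at 150. Where a move does not follow from the setting itself, the cause was not tested. Members with 15 to 19 tags, 36.0% of all, stand at the lower limit of what this library could call. No paired analysis was possible because each group had 1 library.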

Other observations

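Chromosome X stood apart from the 19 autosomes in the place of unmarked C/EBPα-only peaks. They made up 55.5% of the C/EBPα peaks on X, against an autosomal median of 23.6% and a highest value of 28.0% on chromosome 3. Their number per Mb was less unlike the rest, 1.94 on X against a lowest autosomal value of 2.10 on chromosome 18 and a median of 2.56. C/EBPα peaks of any class were fewer, at 3.498 per Mb of X and a median of 10.5 on the autosomes, and so were H3K4me1 regions, at 7.28 and 40.5. On X 41.5% of members were far from the mark and 18.7% near, against autosomal medians of 19.3% and 32.6%. Median tags of members were 24 on X and 22 to 25 on the autosomes. These are descriptions with no test.

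H3K27me3 came within 10 kb of 14.9% of near, 20.05% of intermediate and 8.63% of far members, and of 16.0% of all members. Here too no share over the whole C/EBPα list is set beside them. The member with the highest score, 3165.99, at chr2:105267936-105269122, was named after its values were seen. It held 236 tags with a fold enrichment of 59.75, 920 bp from an H3K4me1 region, 211 bp from an H3K27me3 region and 834 bp from another C/EBPα peak. The 9 members tied at a score of 3100 reached 543 tags and a fold enrichment of 145.99, so score does not rank this member above them. Summits of members lay near the middle of the peak, at a median of 14.2% of the way from the centre to the edge, against 11.2% inside H3K4me1.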
